A study of Mus musculus with 13 samples.

Results

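The genes described here are 10 mouse genes of pericytes and of platelet-derived growth factor (PDGF) signaling, chosen by name: the ligand genes Pdgfa and Pdgfb, the receptor genes Pdgfra and Pdgfrb, the pericyte genes Rgs5, Cspg4, Des and Mcam, and the contractile genes Acta2 and Tagln. They were 10 of 18193 genes with a probe set of their own on the array, and all 10 passed the filter on low values, among 15384 genes tested. Gene expression was measured on 13 mouse arrays carrying RNA of cells sorted by flow cytometry on CD31, a surface protein of endothelial cells that some macrophages and platelets also carry. The cells came from tumors of SKOV3ip1, a human ovarian cancer line grown in mice. B20 is an antibody that blocks VEGF-A, a growth factor on which new blood vessels depend. The resistant group held 4 arrays from tumors that had resumed growth under B20, the sensitive group held 4 arrays from B20-treated tumors that still responded, and the control group held 5 arrays, for which the study describes treatment with control IgG. The labels give no strain, age, dose or day for these arrays, and the study describes nude mice as hosts of this line. Each array was labeled a biological replicate but was not tied to an animal, so each p-value covers only the spread among these arrays, which may be technical.

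Pericytes are the mural cells that wrap the outside of capillaries, and smooth muscle cells take their place on larger vessels. Endothelial cells release PDGF-B, which binds PDGF receptor beta on pericytes and draws them to the growing vessel, while PDGF-A acts mainly through PDGF receptor alpha, the receptor of many fibroblasts. Pericytes are not known to carry CD31, the protein used for the sort. In a bulk sample, fewer cells of a type and less RNA per cell cannot be told apart.

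The CD31 gene itself, Pecam1, was high on only 2 arrays. It stood at 6.56 on the log2 scale on both control 4 and control 5, and between 2.32 and 3.41 on the other 11 arrays, which is close to the floor of 2.01 set for low values. The median over 20 endothelial genes was 6.86 and 7.36 on the same 2 control arrays and 2.76 to 4.21 on the rest. By these 2 measures the labeled cell type was weakly marked on most arrays. The 2 brightest genes of that list, Eng and Kdr, lay further above the floor. They stood at 4.01 to 6.70 and 3.63 to 6.61 on the other 11 arrays. On control 4 and 5, Eng stood at 6.72 and 7.34 and Kdr at 8.65 and 9.08. Within groups, arrays correlated at 0.897 to 0.955 among resistant, 0.664 to 0.919 among sensitive and 0.906 to 0.985 among control arrays. The median over 16 macrophage genes was 3.77, 3.65 and 4.54 on sensitive 1, 2 and 3, and 9.75 on sensitive 4, against 7.76 to 9.78 on every resistant and control array. The difference between 3′ and 5′ probe sets of control transcripts, which is larger in degraded RNA, was 5.75 on sensitive 4 and 2.15 to 4.11 on the other arrays.

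The promoters of Acta2 and Rgs5 are shown because these genes were high on different arrays, Acta2 together with Tagln, and because contractile genes are known to be controlled through the CArG box, the site of serum response factor. RefSeq windows of 300 bases, 250 before and 50 after the annotated start, were at hand for 7 of the 10 genes (8 windows, build GRCm38.p6). Capitals mark CArG boxes with at most 1 base off the consensus and the letters TATAAA or TATATA, searched on both strands. The Acta2 window lies at chr19:34255324-34255623 on the minus strand and the Rgs5 window at chr1:169655251-169655550 on the plus strand.
Acta2: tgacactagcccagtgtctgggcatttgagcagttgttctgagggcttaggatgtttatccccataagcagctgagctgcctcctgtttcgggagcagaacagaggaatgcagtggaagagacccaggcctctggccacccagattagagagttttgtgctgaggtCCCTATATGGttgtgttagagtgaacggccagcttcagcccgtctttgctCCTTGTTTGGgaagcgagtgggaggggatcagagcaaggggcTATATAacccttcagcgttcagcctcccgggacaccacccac
Rgs5: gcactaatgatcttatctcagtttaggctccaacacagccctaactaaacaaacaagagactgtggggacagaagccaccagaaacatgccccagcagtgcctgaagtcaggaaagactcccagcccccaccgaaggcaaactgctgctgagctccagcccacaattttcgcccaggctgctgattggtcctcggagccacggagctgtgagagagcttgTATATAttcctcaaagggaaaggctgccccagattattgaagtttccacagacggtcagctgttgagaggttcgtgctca
Acta2 held 2 such CArG matches, which begin at -84 and -34 from the annotated start, and Cspg4 held 2 overlapping ones beginning at -238 and -237, while the windows of Des, Rgs5, Pdgfra, Pdgfa and Mcam held none. No window of these genes held an exact CArG box. Of all 32851 windows, 1.63% held an exact match, 21.1% held one with at most 1 base off, and 17.1% held the TATA letters. These matches describe letters and are not shown to be bound sites.

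Both ligand genes had their highest values on control arrays. Pdgfa, which encodes the A chain, stood at 5.19, 5.09, 6.42 and 6.07 on resistant 1 to 4, at 4.35, 4.95, 3.02 and 5.82 on sensitive 1 to 4, and at 5.51, 4.86, 4.15, 6.81 and 7.47 on control 1 to 5. Control 4 and 5 were its highest arrays and sensitive 3 its lowest, and the groups overlapped. The resistant mean was 5.69 ± 0.65 (SD, n = 4), the sensitive mean 4.53 ± 1.18 (n = 4) and the control mean 5.76 ± 1.37 (n = 5). Its resistant minus sensitive difference of 1.16 (SE 0.72, 95% interval -0.38 to 2.69) did not pass limma's moderated test (adjusted p = 0.775; exact two-sided permutation p = 0.114). Pdgfb, the B chain that endothelial cells supply to pericytes, stood at 5.54, 4.58, 4.65 and 5.20 on the resistant arrays, at 5.09, 3.84, 3.56 and 6.29 on the sensitive arrays, and at 5.02, 5.07, 4.78, 7.45 and 7.44 on the control arrays. Again control 4 and 5 were highest and sensitive 3 lowest. The sensitive minus control difference was -1.26 (SE 0.68, interval -2.71 to 0.20; adjusted p = 0.461 by limma), and without control 4 and 5 it was -0.26, so most of that difference came from these 2 arrays, the ones with the high endothelial genes. Without them the resistant minus control difference of Pdgfb, -0.96 over all arrays, was 0.04. The part of endothelial content in these differences was not tested.

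The receptor genes followed another set of arrays. Pdgfra, the receptor of PDGF-A and a common fibroblast gene, stood at 4.68, 8.58, 5.96 and 4.75 on resistant 1 to 4, at 5.88, 7.47, 4.94 and 3.40 on sensitive 1 to 4, and at 6.20, 4.84, 5.35, 5.57 and 6.41 on control 1 to 5. Resistant 2 and sensitive 2 were highest and sensitive 4 lowest. Group means differed by 0.57 (SE 0.88) for resistant minus sensitive, -0.25 (SE 0.84) for sensitive minus control and 0.32 (SE 0.84) for resistant minus control, which is less than the SD of 1.82 among resistant and 1.71 among sensitive arrays. Pdgfrb, the pericyte receptor, stood at 4.66, 7.01, 5.83 and 3.09 on the resistant arrays, at 6.78, 5.68, 2.48 and 2.17 on the sensitive arrays and at 5.59, 5.12, 5.97, 5.38 and 6.15 on the control arrays. The control arrays stayed within about a log2 unit of one another, whereas the sensitive arrays split into 2 high and 2 low values. The sensitive minus control difference of -1.37 (SE 0.92, interval -3.34 to 0.61) did not pass (adjusted p = 0.520 by limma; exact permutation p = 0.302). The 2 low sensitive arrays were sensitive 4, with the largest 3′ to 5′ difference, and sensitive 3, which had the highest median over 9 B cell genes (6.74, against 3.03 to 5.48 on the other 12 arrays). The part of RNA quality and of B cell content in these low Pdgfrb values was not tested.

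**Figure D1:**
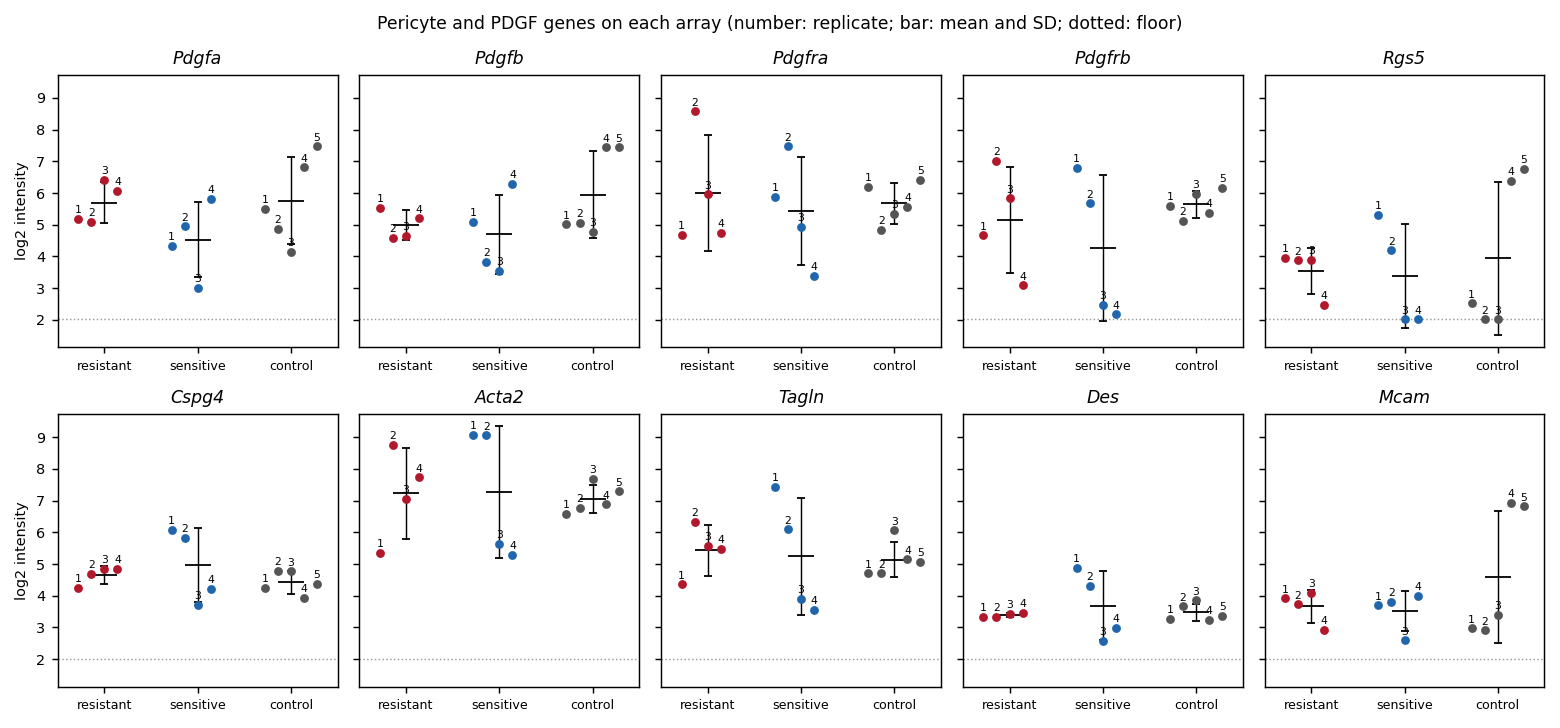
Log2 intensity of each of the 10 genes on each array, by group; the number beside a point is the replicate, the bars are the mean and SD, and the dotted line is the floor of 2.01. The groups overlap in every panel, control 4 and 5 lie highest in Pdgfa, Pdgfb, Rgs5 and Mcam, and sensitive 1 and 2 lie above sensitive 3 and 4 in Pdgfrb, Acta2, Tagln and Des.

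Among the pericyte genes, Rgs5 and Mcam were high on the endothelial-rich control arrays. Rgs5, a regulator of G protein signaling that marks pericytes, stood at 3.96, 3.88, 3.89 and 2.47 on the resistant arrays, at 5.30 and 4.19 on sensitive 1 and 2, and at the floor on sensitive 3 and 4. On the control arrays it was 2.52 on control 1, at the floor on control 2 and 3, and 6.40 and 6.75 on control 4 and 5. Sensitive and control arrays each ran from the floor to a high value, and the resistant arrays lay inside that span. Mcam (CD146), an adhesion molecule of both pericytes and endothelial cells, stood at 3.91, 3.73, 4.10 and 2.93 on the resistant arrays, at 3.70, 3.81, 2.60 and 4.0 on the sensitive arrays, and at 2.97, 2.91, 3.39, 6.92 and 6.82 on the control arrays. Only control 4 and 5 exceeded 4.10. Sensitive minus control was -1.07 (SE 0.81) for Mcam and -0.56 (SE 1.05) for Rgs5, and without control 4 and 5 these turned to 0.44 and 1.20. Resistant minus control turned likewise to 0.58 for Mcam and 1.37 for Rgs5, against -0.93 and -0.39 over all arrays, and none of these values passed with or without the 2 arrays.

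Cspg4 and Des were highest on sensitive 1 and 2. Cspg4 (NG2), a proteoglycan of pericytes and of several progenitor cells, stood at 4.26, 4.70, 4.84 and 4.84 on the resistant arrays, at 6.08, 5.82, 3.72 and 4.22 on the sensitive arrays and at 4.25, 4.79, 4.77, 3.93 and 4.38 on the control arrays. Des, the intermediate filament desmin of muscle and mural cells, stood at 3.34, 3.34, 3.43 and 3.46 on the resistant arrays, at 4.88, 4.31, 2.59 and 2.99 on the sensitive arrays and at 3.28, 3.67, 3.86, 3.25 and 3.37 on the control arrays. With the probe sets in use, sensitive arrays 1 and 2 lay above every other array in both genes and sensitive 3 lay below every other. The sensitive group thus spanned the other groups on both sides. The resistant arrays were tight for Des, with an SD of 0.06, against 1.08 in sensitive and 0.27 in control arrays. On the other Des probe set, nearer the floor, the resistant arrays were not tight, at 2.21, 2.60, 2.51 and 3.02. There sensitive 1 (2.65) lay below control 3 (3.23) and resistant 4. Cspg4 differed by -0.30 (SE 0.48) and Des by -0.30 (SE 0.41) for resistant minus sensitive, and by 0.54 (SE 0.45) and 0.21 (SE 0.39) for sensitive minus control.

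The contractile genes varied more among sensitive than among control arrays. Acta2, which encodes smooth muscle alpha actin and is also made by myofibroblasts, stood at 5.35, 8.76, 7.07 and 7.73 on the resistant arrays, at 9.06, 9.06, 5.64 and 5.28 on the sensitive arrays and at 6.59, 6.78, 7.69, 6.88 and 7.29 on the control arrays. Tagln, the actin-binding protein transgelin, stood at 4.36, 6.32, 5.57 and 5.48 on the resistant arrays, at 7.44, 6.09, 3.91 and 3.55 on the sensitive arrays and at 4.70, 4.71, 6.06, 5.15 and 5.07 on the control arrays. Each of these genes was high on sensitive 1, sensitive 2 and resistant 2 and low on sensitive 3, sensitive 4 and resistant 1. Their group means lay close together in comparison, with differences of -0.03 (SE 0.87) in Acta2 and 0.19 (SE 0.73) in Tagln for resistant minus sensitive, and of 0.21 (SE 0.83) and 0.11 (SE 0.69) for sensitive minus control. Under median scaling or no quantile normalization Acta2 changed sign in both of these comparisons and Tagln in sensitive minus control, so no direction is given for them. The Acta2 probe set in use carries the suffix _s_at, which marks probes that can match related transcripts.

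None of the 10 genes passed an adjusted p of 0.05 in resistant minus sensitive, sensitive minus control or resistant minus control, where 0% of the 15384 genes passed in each. At an unadjusted p under 0.05, 0 of the 10 genes stood out in each comparison, against 7.07% of all genes in resistant minus sensitive, 11.9% in sensitive minus control and 2.52% in resistant minus control. With the probe set in use for each gene, groups that did not overlap were found for 0 of the 10 genes. Of all genes, 0.975% were higher and 0.897% lower without overlap in resistant than in sensitive arrays. The shares were 1.43% higher and 1.59% lower in sensitive than in control arrays, and 1.31% higher and 1.39% lower in resistant than in control arrays. The exact permutation test over samples, whose smallest possible p is 0.0286 for 4 against 4 arrays and 0.00794 for 4 against 5, gave 0 genes after adjustment over all genes. That smallest p needs groups without overlap, which few genes had, so the adjusted test could hardly call any gene. Its lack of calls therefore adds nothing to the limma result. The 95% intervals of the 10 genes were wide, so absence of a call does not show equal levels: for resistant minus sensitive they ran from -1.19 to 0.58 in Des, the narrowest, and from -2.20 to 2.53 in Rgs5, the widest. SEs and intervals use a common spread per gene over all 3 groups. Those of resistant minus control thus also carry the spread of the sensitive arrays. For Des that SE was 0.39, beside SDs of 0.06 in resistant, 0.27 in control and 1.08 in sensitive arrays. The median difference over the 10 genes was 0.18 for resistant minus sensitive, against -0.07 over all genes tested, with 7 of 10 positive. It was -0.40 for sensitive minus control (4 of 10 positive, 0.09 over all genes) and -0.08 for resistant minus control (4 of 10 positive, 0.03 over all genes). Of all 15384 genes, 6481, 8979 and 8348 were positive in these comparisons, in the same order. Each of these comparisons shares arrays with the others.

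**Figure D2:**
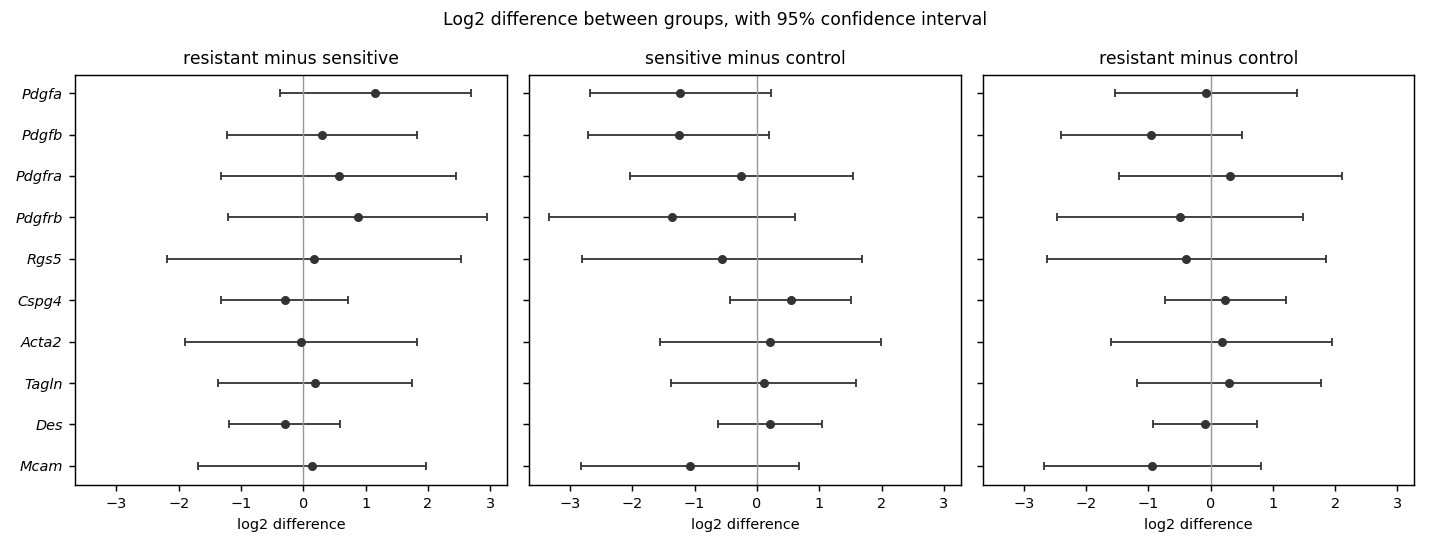
Log2 difference between group means for each of the 10 genes in the 3 comparisons; points are limma estimates and bars 95% confidence intervals. All 30 intervals include 0, with Pdgfa at 1.16 for resistant minus sensitive and Pdgfrb at -1.37 for sensitive minus control.

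The 10 genes had 22 probe sets, of which 20 were tested among 33616, and none passed. Probe sets of a gene disagreed most for Cspg4 and Pdgfrb. For Cspg4, the other probe set stood at 4.33, 4.76, 4.88 and 4.91 on the resistant arrays, at 3.43, 2.79, 2.89 and 3.73 on the sensitive arrays and at 3.53, 5.19, 4.65, 3.96 and 4.04 on the control arrays. Every resistant array lay above every sensitive array there, with a difference of 1.51 (SE 0.37, adjusted p = 0.487 by limma over all probe sets), whereas the probe set in use gave -0.30. The share of all probe sets with such a separation was not computed, and among genes it was 0.975%. The high values of this other probe set were not on sensitive 1 and 2, in contrast with the probe set in use. The direction for Cspg4 therefore depends on the probe set. For Pdgfrb, the other probe set gave 0.37 (SE 0.42) for sensitive minus control where the probe set in use gave -1.37, although both were highest on resistant 2, sensitive 1 or sensitive 2. Pdgfa, Pdgfb and Pdgfra kept the direction of the sensitive minus control difference in each tested probe set, all negative, without passing the test. In resistant minus control the other Pdgfa probe set gave 0.38 (SE 0.73), where the one in use gave -0.07. On that other Pdgfa probe set resistant 3 (6.795) lay above control 4 (6.775), below control 5 (6.916). On the other Pdgfb probe set sensitive 2 (4.31) lay above control 5 (4.01), below control 4 (4.47). For Rgs5, 1 of the 3 tested probe sets, with the suffix _x_at, had the opposite direction in resistant minus sensitive and in sensitive minus control.

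**Figure D3:**
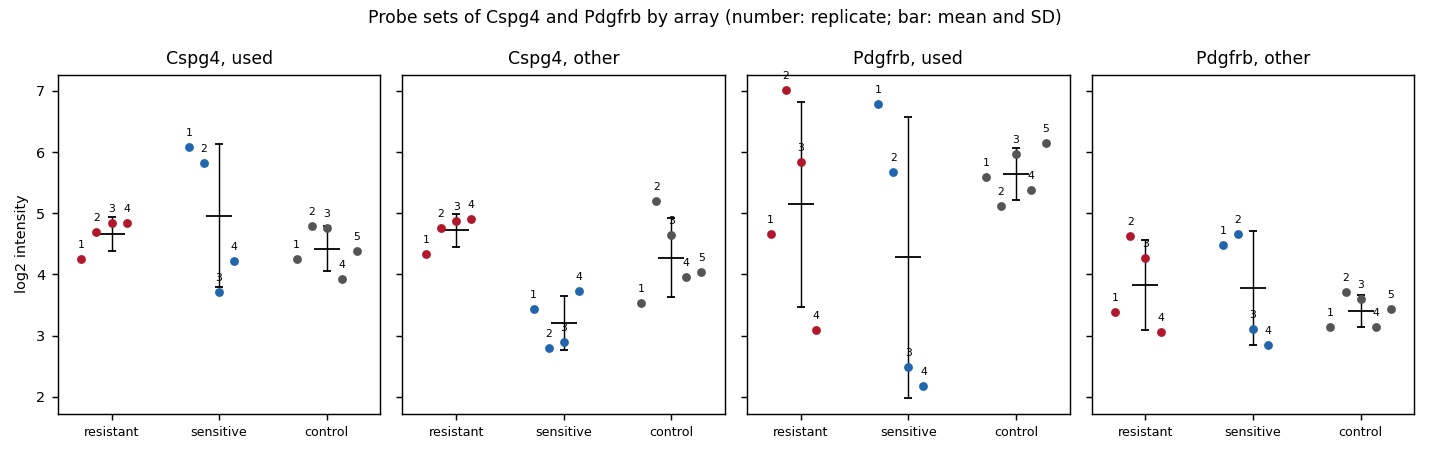
Log2 intensity of the 2 probe sets of Cspg4 and the 2 of Pdgfrb on each array, by group, with replicate numbers, mean and SD. For Cspg4 the probe set in use has sensitive 1 and 2 on top, while on the other every resistant array (4.33 to 4.91) lies above every sensitive array (2.79 to 3.73).

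Across arrays the genes fell into those high on control 4 and 5 and those high elsewhere. With the probe sets in use, control 4 and 5 were the 2 highest arrays for 4 genes, Pdgfa, Pdgfb, Rgs5 and Mcam. The other 6, Pdgfra, Pdgfrb, Acta2, Tagln, Cspg4 and Des, had their highest value on sensitive 1 or resistant 2. On sensitive 1, sensitive 2 and resistant 2, the median over 15 fibroblast genes was 7.05, 7.17 and 7.06, against 3.44 to 6.16 on the other 10 arrays. The median over 12 mesothelial genes was 7.19, 7.63 and 6.97 on the same arrays, against 2.58 to 6.04 on the others; mesothelial cells line the peritoneal cavity. Krt8, a keratin of lining and epithelial cells, reached 9.72 and 8.90 on sensitive 1 and 2 and 2.29 on sensitive 4, and Upk1b, also of that list, 8.84 and 10.19 against 4.54. Col3a1, a fibrillar collagen of fibroblasts, reached 12.5 on resistant 2 and 11.7 and 11.9 on sensitive 1 and 2, but also 11.7 on resistant 3 and 10.7 to 11.5 on the control arrays, and was lowest on sensitive 4 (5.94). The lowest array was sensitive 3 or sensitive 4 for each of the 10 genes, except that Rgs5 was also at the floor on control 2 and 3. The part of these other cell types in the pericyte and contractile gene values was not tested.

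**Figure D4:**
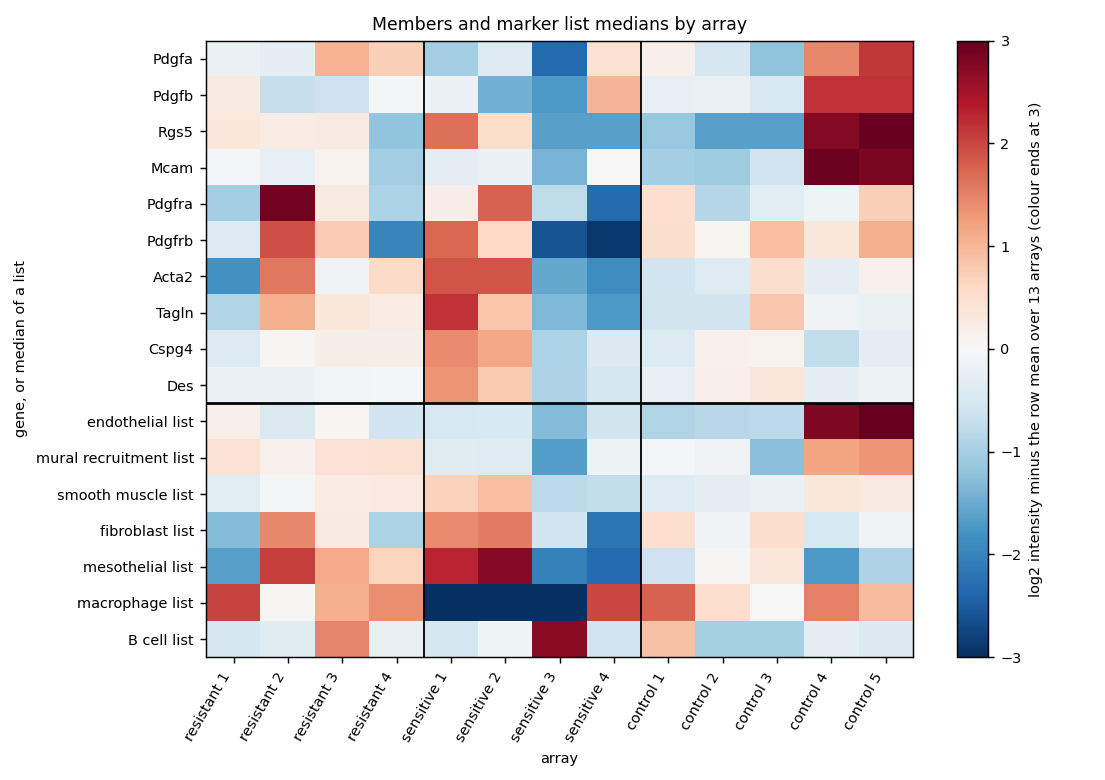
Log2 intensity of the 10 genes and the median of 7 marker lists on each array, each row shown as the difference from its own mean over the 13 arrays (red above, blue below, colour ending at 3). Rgs5 and Mcam share the red cells of the endothelial list on control 4 and 5. Acta2, Tagln and Pdgfrb are red with the fibroblast and mesothelial lists on resistant 2 and sensitive 1. Pdgfra is red on resistant 2 and sensitive 2, and close to its mean of 5.69 on sensitive 1 (5.88).

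Pairs of the 10 genes were compared over the 13 arrays as a description, since arrays differ in cell content and RNA quality. All correlations given here rest on the probe set in use for each gene. On the other Cspg4 probe set sensitive 1 and 2 were not high (3.43 and 2.79), and correlations with it were not computed. Acta2 and Tagln had a Pearson correlation of 0.93, Cspg4 and Des of 0.94, and Pdgfra and Pdgfrb of 0.76. Without control 4 and 5 these were 0.93, 0.96 and 0.75. Mcam correlated at 0.86 with Rgs5 and at 0.83 with Pdgfb, and at 0.60 and 0.34 without those 2 arrays. Receptor and ligand did not follow each other, with 0.04 for Pdgfb and Pdgfrb and 0.06 for Pdgfa and Pdgfra. Of all genes tested, those most like Mcam were Sox18, an endothelial transcription factor (0.98), Pecam1 (0.98) and Tmem204 (0.97), which dropped to 0.78, 0.80 and 0.75 without control 4 and 5. Rgs5 was most like Podxl, Gja4 and Zfp423 (0.95 to 0.96), and Pdgfb like Apbb2, Tnfaip8l1 and Cldn5, a junction protein of endothelium (0.90 to 0.92). Without control 4 and 5 these were 0.89 to 0.90 for Rgs5, and 0.73, 0.74 and 0.69 for Pdgfb. Pdgfa was most like Oasl1 (0.93), Apbb2 and Fnbp1l (0.89 each). Pdgfra was most like Has2, which makes hyaluronan, Lgi2 and Lum, a matrix proteoglycan of fibroblasts (0.93 to 0.95). Pdgfrb was most like Csrp2, Mrc2 and Igfbp4 (0.95 to 0.96), Acta2 like Gfpt2, Angptl4 and Cdr2l (0.96 to 0.97) and Tagln like Klf5, Mecom and Nbl1 (0.96 to 0.97). Cspg4 was most like Gcgr, Lmo4 and Pkdcc (0.96 each) and Des like Dok4, Tmem134 and Ctnnbip1 (0.97 to 0.98).

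Other genes of PDGF signaling, 24 of 25 on the list tested, gave no calls. For resistant minus sensitive, 19 of 24 were positive with a median of 0.29, and for sensitive minus control 18 of 24 were negative with a median of -0.41, against -0.07 and 0.09 over all genes. Of all 15384 genes, 6481 were positive in the first comparison and 6405 negative in the second, and both share the sensitive arrays. The adaptor Gab1 stood at 7.41, 6.94, 6.94 and 7.23 on the resistant arrays, at 3.34, 4.29, 3.28 and 8.34 on the sensitive arrays and at 7.92, 6.76, 6.08, 7.57 and 7.44 on the control arrays. Lrp1, a large receptor that binds PDGF receptor beta, averaged 8.08 in resistant, 6.15 in sensitive and 7.83 in control arrays (resistant minus sensitive 1.93, SE 0.65, adjusted p = 0.567 by limma). Crk, an adaptor, differed by -0.98 (SE 0.37) for sensitive minus control. Gab1 and Lrp1 were low on sensitive 1 to 3 and high on sensitive 4, the split seen in the macrophage genes, whose part was not tested. Pdgfd, a further ligand, exceeded the floor on 3 of 13 arrays and was left out.

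Further pericyte and smooth muscle genes gave no calls, and their levels ran from the floor to well above it. Of 19 other mural genes with a probe set, 14 were tested, and Higd1b and Zic1 were at the floor on all 13 arrays, while Tbx2, Tbx18 and Aspn exceeded it on 2, 1 and 3 arrays. Of the tested ones, Ndufa4l2, a mitochondrial protein of pericytes, averaged 3.87 in resistant, 4.25 in sensitive and 3.62 in control arrays, Vtn (vitronectin) 2.35, 2.39 and 2.57, and Foxf2, a transcription factor of brain pericytes, 2.19, 2.29 and 2.15. The smooth muscle genes included Itga8 at the floor on all arrays and Myocd, the activator of the contractile program, above it on 2. Myh11, smooth muscle myosin, averaged 2.30, 2.12 and 2.14 in resistant, sensitive and control arrays, Cnn1 (calponin) 2.04, 2.26 and 2.11, and Sncg 2.01, 2.31 and 2.19. On sensitive 1 and 2, where Acta2 was highest, Myh11 was 2.09 and 2.12 and Cnn1 2.67 and 2.35, and 2.67 was the highest value of Cnn1 on any array. Other genes of these lists, named after their values were seen, exceeded the floor on all 13 arrays: Cald1 (caldesmon) ranged from 3.09 to 9.13, Tpm2 (a tropomyosin) from 4.03 to 8.75, and Notch3, a receptor of mural cells, from 4.21 to 6.25. The summed intensity of the 13 smooth muscle genes tested was 144 to 854 on the resistant arrays, 865 and 1331 on sensitive 1 and 2, 118 and 123 on sensitive 3 and 4, and 227 to 459 on the control arrays, so this sum followed the split of Acta2 among the sensitive arrays. Such a sum mostly reflects the brightest genes of the list. The median over the 13 genes was 3.74 and 3.95 on sensitive 1 and 2 and 2.25 and 2.30 on sensitive 3 and 4. It was 2.69 to 3.34 on resistant and 2.65 to 3.35 on control arrays. The median difference was -0.14 and -0.10 for the mural and smooth muscle lists in resistant minus sensitive and 0.07 and 0.12 in sensitive minus control, with 0 calls in each.

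Genes by which endothelium recruits and matures mural cells, 15 tested, gave no calls either. Jag1, a Notch ligand with the smallest adjusted p of the list, stood at 6.72, 5.73, 6.65 and 6.72 on the resistant arrays, at 2.47, 3.56, 3.08 and 6.85 on the sensitive arrays and at 6.60, 6.76, 6.54, 7.39 and 7.52 on the control arrays. Sensitive 1 to 3 were low and sensitive 4 was level with the other groups, again the arrays of the macrophage split. Jag1 differed by 2.47 (SE 0.72, adjusted p = 0.471 by limma) for resistant minus sensitive and by -2.97 (SE 0.68, adjusted p = 0.189) for sensitive minus control. Edn1 (endothelin 1) was highest on control 4 and 5, at 7.67 and 7.84, and differed by 1.20 (SE 0.68) and -1.82 (SE 0.65) in the same comparisons. Smad3, a mediator of TGF-beta signaling, differed by -0.70 (SE 0.34) and 0.90 (SE 0.32). Over the list the median was 0.75 for resistant minus sensitive, with 11 of 15 positive, and -0.29 for sensitive minus control, with 11 of 15 negative, and no gene passed. Of all 15384 genes, 6481 were positive in the first comparison and 6405 negative in the second. Both comparisons share the sensitive arrays.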

How the data were processed

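Per the labels, CD31-sorted cells gave total RNA that was labeled by the Affymetrix protocol and processed with MAS5 (no version), while the study's methods name Illumina bead chips and BRB-ArrayTools. The table deposited by the authors held 45101 Affymetrix probe sets with values of 0.461 to 13.0, taken as log2 intensities; their base and normalization were not given in the sources used here. Of the probe sets, 34958 had 1 gene symbol, 932 several and 9211 none listed. Values were quantile normalized and floored at their 30th percentile (2.01). The probe set with the highest mean over the 13 arrays stood for each gene, and genes above the floor on at least 4 arrays were tested (15384, with 2809 left out). limma 3.58.1 in R 4.3.3 (lmFit, eBayes with an intensity trend) was fitted to all 3 groups, with a common spread per gene. Benjamini-Hochberg adjustment ran over all tested genes, and an exact two-sided permutation test per gene was run beside limma. The limma fit was also run on simulated data with independent noise of equal spread in all groups. The real groups differed in spread, so the simulation does not show how the fit behaves on them. The number of arrays limits the precision. Replicate numbers did not pair arrays: same-numbered deviations correlated at -0.43 to 0.53. Named genes were the 10 genes, the 3 with the smallest p in each of the PDGF, mural, smooth muscle and recruitment lists, the 2 brightest of each other marker list (of these, those that bear on a result are printed), the 3 genes most like each of the 10, and Pecam1. The members, lists and left-out arrays were chosen with earlier results of these data known. Alternatives covered normalization, floor, filter, probe set choice, weights, blocks and left-out arrays.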

Additional observations from a re-analysis of the deposited data

Results flagged for a closer look

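Rgs5 stood at 2.47 on resistant 4, against 3.88 to 3.96 on the other resistant arrays, a gap of 0.941 of the group's range. It was the only such value among 30 gene and group combinations, and chance sets apart about 1 in 20 groups. A second Rgs5 probe set, above the floor on all 13 arrays, had no such gap, with 3.11 on resistant 4 and 3.10 to 3.46 on the other resistant arrays.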

How the results depend on the processing

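Over 27 alternatives, 0 of the 10 genes passed in any comparison, and 81 of 810 differences changed sign, none of them past the threshold (smallest adjusted p = 0.0724 by limma, for Pdgfrb in sensitive minus control without sensitive 1 and 2 and resistant 2 and 3). A fit without both sensitive 3 and sensitive 4 was also run after the values were seen. It made calls among the 10 genes and across a large share of all genes. Because those arrays were picked by their low values of these same genes, it supports nothing and is not counted among the alternatives. The counted sets of several left-out arrays were also chosen with earlier results known. They include arrays on which some of these genes were highest, such as sensitive 1 and 2 for Acta2. The lack of calls under those sets therefore does not show that the results are stable, and their sign changes depend on that choice. The cause of the changes below was not tested. Over all genes, 0 passed in each comparison. Array weights gave 34 genes in resistant minus control, and the arrays of both groups alone gave 2 in resistant minus sensitive. Leaving out sensitive 1, 2 and 3 gave 2 in resistant minus sensitive and 4 in sensitive minus control, and leaving out sensitive 1 and 2 and resistant 2 and 3 gave 3 in sensitive minus control. Leaving out 1 array gave 0 to 428 genes in resistant minus sensitive (428 without sensitive 4, 4 without control 1) and 0 to 696 in sensitive minus control (696 without sensitive 4, 1 without control 3).

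With the replicate number as a block, 0 genes passed. Rgs5 was 0.14 in sensitive minus control, and Pdgfa 0.36 and Rgs5 0.31 in resistant minus control; no call changed. The numbers mark no known pairing.

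Without quantile normalization, Acta2 was 0.32 in resistant minus sensitive, and Acta2 -0.21 and Tagln -0.32 in sensitive minus control. Under median scaling, Cspg4 was 0.053 and Acta2 0.41 in resistant minus sensitive, and Acta2 -0.33, Tagln -0.43 and Des -0.023 in sensitive minus control. The mean of all probe sets gave Cspg4 0.60 in resistant minus sensitive and -0.26 in sensitive minus control, and Pdgfa 0.15 and Des 0.034 in resistant minus control. Without _s_at and _x_at probe sets, Acta2 was -0.017 in resistant minus control. Array weights gave Tagln -0.019 in sensitive minus control and Des 0.034 in resistant minus control.

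Without control 4 and 5, Rgs5 was 1.20 and Mcam 0.44 in sensitive minus control, and Pdgfa 0.85, Pdgfb 0.040, Rgs5 1.37 and Mcam 0.58 in resistant minus control. Without sensitive 1, 2 and 3, where the lone sensitive array is assumed to vary like the others, Pdgfa was -0.12, Pdgfb -1.30, Cspg4 0.44, Acta2 1.95, Des 0.40 and Mcam -0.33 in resistant minus sensitive, and Pdgfa 0.054, Pdgfb 0.35, Cspg4 -0.20, Acta2 -1.77, Tagln -1.59 and Des -0.49 in sensitive minus control. Without sensitive 1 and 2 and resistant 2 and 3, Cspg4 was 0.58, Acta2 1.08 and Des 0.61 in resistant minus sensitive, Cspg4 -0.45, Acta2 -1.59, Tagln -1.41 and Des -0.69 in sensitive minus control, and Pdgfra -0.96, Acta2 -0.51 and Tagln -0.22 in resistant minus control.

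Leaving out 1 array at a time turned 20 of the 30 differences at least once. Of those that kept their sign, Pdgfa ran from 0.65 to 1.59 and Pdgfrb from 0.17 to 1.71 in resistant minus sensitive, Pdgfa from -1.66 to -0.72, Pdgfb from -1.79 to -0.88, Pdgfrb from -2.20 to -0.66, Cspg4 from 0.17 to 0.95 and Mcam from -1.50 to -0.49 in sensitive minus control, and Pdgfb from -1.25 to -0.58, Cspg4 from 0.11 to 0.37 and Mcam from -1.36 to -0.35 in resistant minus control. Among those that turned, the ranges for resistant minus sensitive were -0.079 to 0.83 in Pdgfb, -0.29 to 1.25 in Pdgfra, -0.29 to 0.81 in Rgs5, -0.71 to 0.071 in Cspg4, -0.69 to 0.59 in Acta2, -0.38 to 0.92 in Tagln, -0.67 to 0.094 in Des and -0.17 to 0.39 in Mcam. For sensitive minus control they were -0.93 to 0.42 in Pdgfra, -1.20 to 0.14 in Rgs5, -0.39 to 0.87 in Acta2, -0.62 to 0.67 in Tagln and -0.19 to 0.58 in Des. For resistant minus control they were -0.47 to 0.36 in Pdgfa, -0.54 to 0.76 in Pdgfra, -1.12 to 0.19 in Pdgfrb, -0.87 to 0.31 in Rgs5, -0.33 to 0.80 in Acta2, -0.0015 to 0.65 in Tagln and -0.15 to 0.002 in Des.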
